A study of Mus musculus with 6 samples.

Results

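The genes described here are 44 endothelial and angiogenic genes, chosen by name: markers and barrier proteins of endothelial cells, the VEGF ligands and their receptors, the angiopoietins and Tie receptors, endothelial transcription factors, genes of Notch signalling and of arterial, venous or lymphatic fate, and leukocyte adhesion molecules. All 44 carried a gene symbol on the array, among 27307 gene symbols in all, and were covered by 72 of its 56605 probes. The rule that picks them uses gene names, and the list was drawn up with earlier results of these data known.

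RNA came from the myocardium of male C57BL/6J *Clk4*-cKO mice, 3 given AAV NEXN-WT and 3 given AAV NEXN-S437E. NEXN (nexilin) is an actin-binding protein of the cardiac Z-disc, and NEXN-S437E carries a change that mimics its phosphorylated form, whereas NEXN-WT is the unmutated protein and served as the control. All 6 mice were labelled *Clk4*-cKO, a genotype in which the floxed kinase gene *Clk4* is deleted by α-MHC-MerCreMer, a tamoxifen-inducible Cre active in cardiomyocytes only, so endothelial cells are not the cells meant to lose *Clk4*. The vectors were AAV of serotype 9 with a CMV promoter, which is not restricted to cardiomyocytes, and also encoded GFP. The labels give no age, the study's methods describe mice a few weeks old, and no *Clk4*-intact or untreated group was among these arrays. The comparison thus asks which transcripts differed between hearts labelled *Clk4*-cKO with phosphomimetic NEXN and those with wild-type NEXN. The signal read below as that of the transgene bears on that label.

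Endothelial cells line all vessels of the heart and form a dense capillary bed around the cardiomyocytes. VEGF ligands, secreted largely by neighbouring cells, act through receptor tyrosine kinases on endothelial cells to drive vessel growth and permeability. Angiopoietin 1, made by cells around the vessel, keeps vessels quiet through the receptor Tie2, and angiopoietin 2, released by endothelial cells, can oppose it, while Notch signalling with the ephrin pair sets arterial against venous identity. In RNA from whole myocardium, fewer cells of a type and less RNA per cell cannot be told apart.

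The array reads each VEGF ligand through short probes, and 3 whose sequence holds an open reading frame are shown because *Vegfa*, *Vegfc* and *Vegfd* were each read by more than 1 probe. Sequences are those deposited with the array, 5′ to 3′, with mm9 positions from the same annotation. The capitals mark the lysine and arginine codons in the first and the cysteine codons in the others. There is 1 such codon in the *Vegfc* probe and 2 in the *Vegfd* probe. The frame was read from base 2 of each probe and was not checked against a protein table, and in the *Vegfa* and *Vegfd* probes 2 frames were free of stop codons.
*Vegfa* A_55_P2741794, chr17:46159226-46159282, minus strand: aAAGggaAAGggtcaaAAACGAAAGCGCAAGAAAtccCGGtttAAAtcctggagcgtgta
*Vegfc* A_55_P2745057, chr8:55244696-55244755, plus strand: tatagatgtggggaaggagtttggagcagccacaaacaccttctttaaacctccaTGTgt
*Vegfd* A_66_P112629, chrX:160832499-160833909, plus strand: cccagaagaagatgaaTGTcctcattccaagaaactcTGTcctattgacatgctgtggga
In the first of these, 10 of the 19 codons read were for lysine or arginine, a basic run of the kind that lets the longer isoforms of VEGF-A bind heparin and matrix. The *Vegfd* probe covers 1411 bases of genome with 60 bases of sequence, so it spans a splice junction.

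Values are log2 signals relative to the 75th percentile of each array, and limma tested the probes that stood well above background in every replicate of either group. Of the 72 probes, 54 were tested, which covered 40 of the 44 genes, and the tested probe of highest mean stood for each gene. For 39 of the 40 that probe was well above background on all 6 arrays, *Pecam1* (CD31), *Cdh5* (VE-cadherin), *Kdr* and *Tek* among them. The 4 genes without a tested probe were *Notch1*, *Hey2* and the selectins *Sele* and *Selp*, whose 7 probes were not well above background on any array.

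Features of the arrays bear on what follows. NEXN-WT replicate 1 stood apart: its mean absolute log2 difference was 0.38 and 0.44 from the other NEXN-WT arrays, against 0.25 between those, and 0.50 to 0.56 from the NEXN-S437E arrays. The *Esr1* probe is read here as a signal of the receptor part of MerCreMer, a match that was not checked against the transgene sequence. It read 3.13, 5.82 and 5.21 in NEXN-WT hearts but stood well above background in none of the 3 NEXN-S437E hearts. There it was at least 255-fold lower (limma adjusted p = 0.00114). On that reading, the NEXN-S437E hearts labelled *Clk4*-cKO did not show the signal of the transgene they should share with the controls. The cause was not tested. *Clk4* itself differed by 0.13 (SE 0.18, limma adjusted p = 0.706) and *Nexn* by 0.02 (SE 0.23, limma adjusted p = 0.977). Every direction below is therefore between hearts as labelled. Markers of other cell types also moved with the groups: all 9 fibroblast markers had differences below 0, 7 of them past the unadjusted p and none past the adjusted p (median log2 fold change -0.86, summed relative signal 634 to 1024 in NEXN-WT against 452 to 487 in NEXN-S437E). All 6 measured T cell markers were below 0 and past the unadjusted p, 3 of them past the adjusted p (*Cd3d*, *Cd3g* and *Lck*; 2.62 to 3.98 against 0.93 to 1.28), while all 9 cardiomyocyte markers were above 0, 5 past the unadjusted p and none past the adjusted p (median 0.43; 2076 to 2690 against 3237 to 3348). Of the 10 smooth muscle and pericyte markers 1 was higher at the unadjusted p (median -0.02), and of the 7 macrophage markers 1 was lower (median 0.06). Blood content set NEXN-S437E replicate 1 apart: the haemoglobin gene *Hba-a1* read 8.31 on it, against 4.82 and 5.58 on the other NEXN-S437E arrays and 5.28, 5.80 and 6.78 in NEXN-WT, and that array alone carries the values given below with slide row as a block. Their part in the endothelial values was not tested.

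No endothelial or angiogenic gene stood out at the stricter thresholds, which few genes of the array passed either. None of the 40 genes passed a Benjamini-Hochberg adjusted p of 0.05, which 0.204% of all 13747 genes with a tested probe passed, and none passed a 2-fold change with an unadjusted p of 0.05, which 2.92% of all genes did, so counts of 0 in 40 genes are near the background and say nothing particular to these genes. At the unadjusted p alone, limma called 4 of the 40, *Angpt2*, *Gpihbp1* and *Pgf* higher and *Cldn5* lower with NEXN-S437E, where the share among all genes was 18.0%, of which 10.1% were higher and 7.91% lower. The methods' t-test called 1 of the 40 at the unadjusted p, against 14.7% of all genes, and none of the 40 or of all genes after adjustment. The values of 6 genes did not overlap between the groups, 4 higher and 2 lower, against 30.6% of all genes.

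The median log2 fold change was 0.03 over the 40 genes and 0.07 over all genes, with 23 of the 40 above 0 and 17 below, where 59.2% of all genes were above 0. With the percentile taken over detected probes the split was 15 above and 25 below, with 45.2% of all genes above 0. Which side of 0 the members' median fell on turned with the scaling, the background correction, the weights and the arrays used: it was -0.06 after quantile normalization, -0.08 with that percentile, -0.04 after normexp, -0.06 in the deposited values, -0.07 with array weights and -0.04 without NEXN-WT replicate 1. The median absolute difference was 0.17 for the 40 genes against 0.22 for all genes, and 23 of the 40 differed by less than 0.2, as did 45.4% of all genes. The 95% interval of the difference lay within a 2-fold change either way for 34 of the 40 genes (82.2% of all genes) and within 1.5-fold for 19 (39.9%). For the other 6 genes a 2-fold change lay inside the interval, so their data do not limit the difference to less than that.

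**Figure D1:**
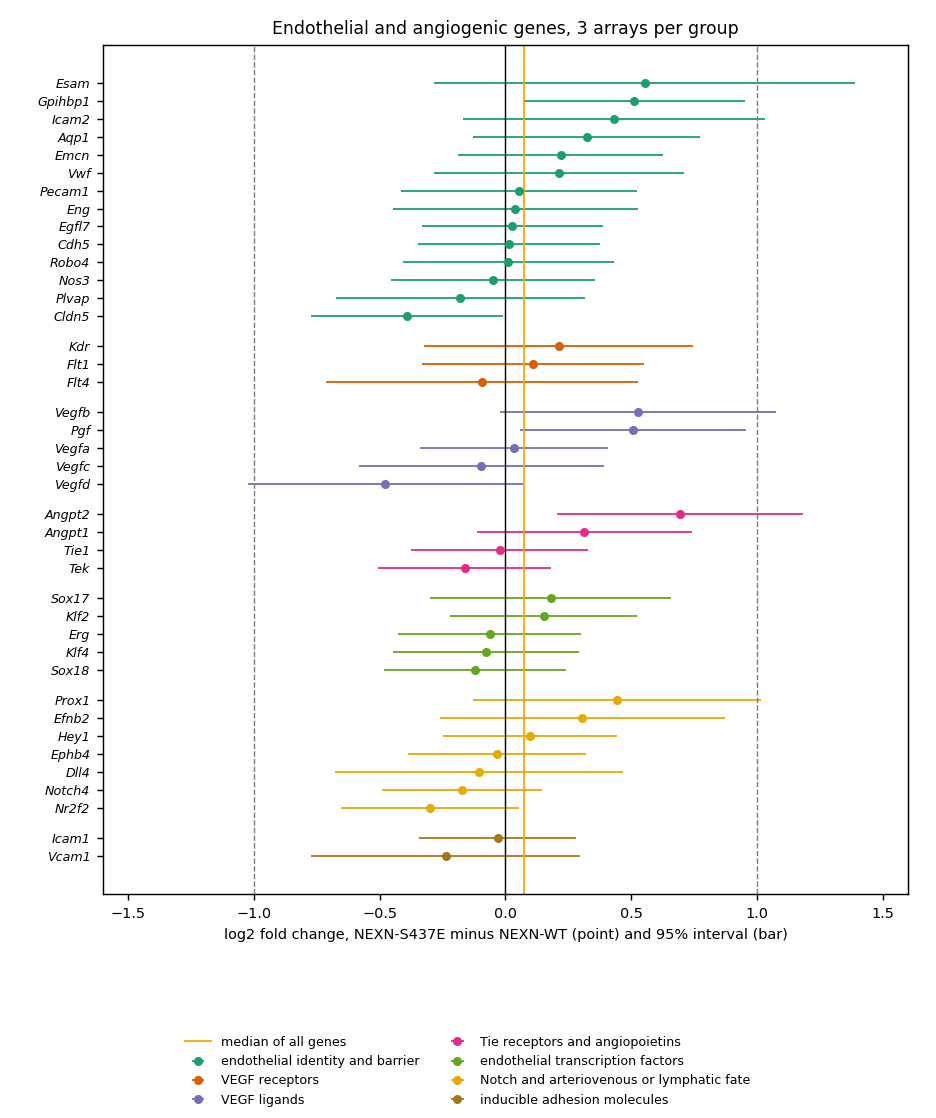
Difference of each of the 40 tested genes, grouped by role. Points are log2 fold changes (NEXN-S437E minus NEXN-WT, 3 arrays per group), bars are 95% intervals from limma, the orange line is the median of all genes and the dashed lines mark a 2-fold change. The intervals of *Angpt2*, *Gpihbp1* and *Pgf* lie above 0 and that of *Cldn5* below it, and 34 of the 40 stay between the dashed lines.

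**Figure D2:**
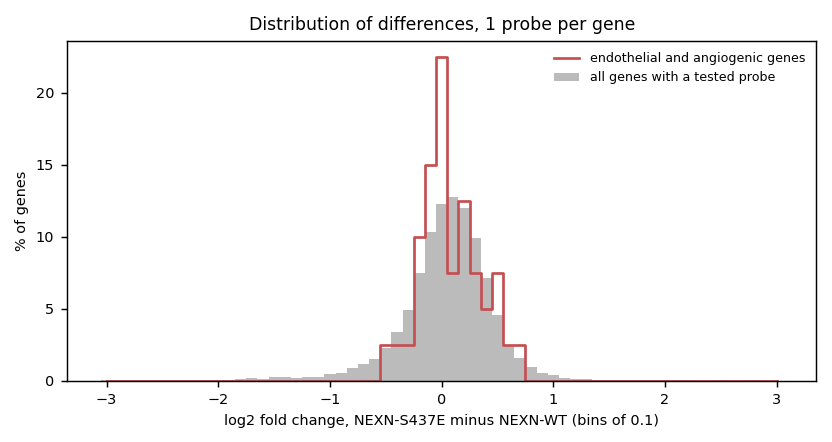
Share of genes (vertical axis, % of genes) in each bin of log2 fold change (horizontal axis, NEXN-S437E minus NEXN-WT), for all 13747 genes with a tested probe (grey bars) and for the 40 endothelial and angiogenic genes (red line). The 40 genes run from -0.48 to 0.69 and hold none of the long lower tail of the grey bars, where few of all genes lie.

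Among the 5 VEGF ligands, only *Pgf* passed the unadjusted p at its leading probe and none passed the adjusted p. The leading probes differed by 0.51 for *Pgf*, 0.53 for *Vegfb*, -0.48 for *Vegfd*, 0.03 for *Vegfa* and -0.10 for *Vegfc*. *Pgf*, placental growth factor, binds only VEGFR1 among the VEGF receptors. It read -1.65, -1.02 and -1.09 with NEXN-WT and -0.71, -0.66 and -0.87 with NEXN-S437E. Every NEXN-S437E value was above every NEXN-WT value, and the lowest value was that of NEXN-WT replicate 1. The log2 fold change was 0.51 (SE 0.20, limma adjusted p = 0.255), and 0.31 without that replicate.

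*Vegfb*, another VEGFR1 ligand, made in quantity by cardiomyocytes and linked to fatty acid uptake across the endothelium, read 3.33, 4.13 and 4.19 against 4.51, 4.33 and 4.38. The groups did not overlap, but the 2 nearest NEXN-WT arrays lay only a little below the NEXN-S437E arrays and replicate 1 lay far lower. The log2 fold change of 0.53 (SE 0.24, limma adjusted p = 0.301) was 0.25 without NEXN-WT replicate 1.

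*Vegfd*, a ligand of the lymphatic receptor VEGFR3, read 0.92, 0.51 and 0.42 against 0.57, -0.24 and 0.09, and the groups overlapped. Its log2 fold change was -0.48 (SE 0.24, limma adjusted p = 0.338), the lowest of the 40. It was -0.29 without NEXN-S437E replicate 2 and -0.69 without NEXN-S437E replicate 1. The junction probe shown above gave -0.50 (SE 0.26, limma adjusted p = 0.344), so both probes put the gene about equally low. Most of that difference lay outside the slide row that held arrays of both groups: with slide row as a block, which sets NEXN-S437E replicate 1 against the 3 NEXN-WT arrays, it was -0.05. *Vegfc*, the other VEGFR3 ligand, differed by -0.10 at its leading probe, by -0.15 at a second and by -0.13 at the probe shown, which passed the background test in all 3 NEXN-WT hearts but in 1 NEXN-S437E heart.

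*Vegfa*, the main growth factor of capillaries, was read by 4 tested probes. Its leading probe, A_52_P638895, read 2.33, 2.81 and 2.58 against 2.62, 2.63 and 2.56, a difference of 0.03 (SE 0.16). A_51_P482552 differed by -0.04 (SE 0.18) and A_52_P249424 by 0.19 (SE 0.26), and the groups overlapped at all 3 of these probes.

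The fourth, A_55_P2741794, whose sequence holds the basic run, read -1.96, -1.75 and -1.87 with NEXN-WT and -1.44, -1.50 and -1.52 with NEXN-S437E. Here the groups were apart and the replicates close, and the log2 fold change was 0.37 (SE 0.14, unadjusted p = 0.027, limma adjusted p = 0.241). It ranged from 0.26 to 0.42 over the alternatives. To set it beside the rest of the gene, a comparison chosen after these values were seen, the mean of the other 3 probes was subtracted on each array. That gave -3.70, -4.15 and -4.07 for NEXN-WT and -3.71, -3.63 and -3.66 for NEXN-S437E, with the NEXN-WT replicate 1 value inside the NEXN-S437E range. The group means differed by 0.31. A two-sided exact permutation test gave p = 0.2, where 3 against 3 arrays cannot give a p below 0.1, so the difference is given as a value with no call.

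**Figure D3:**
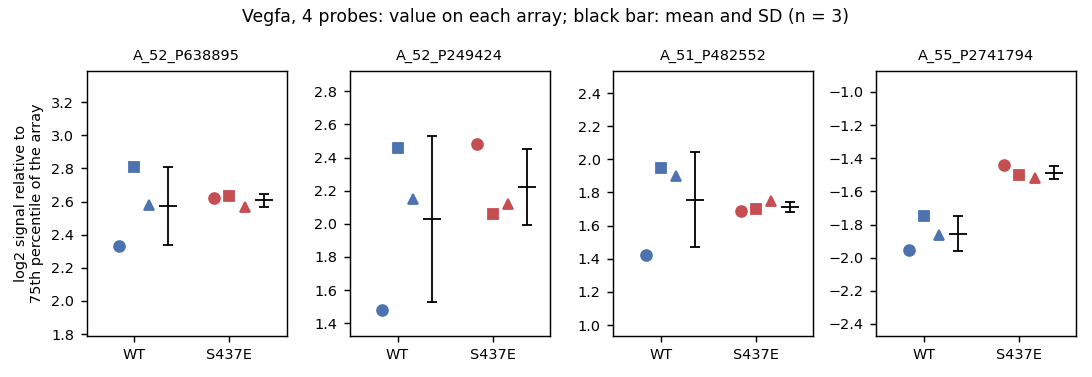
The 4 tested *Vegfa* probes, each in its own panel with its own range of log2 signal relative to the array's 75th percentile (vertical axis). Points are arrays (circle, square and triangle for replicates 1, 2 and 3; blue NEXN-WT, red NEXN-S437E) and black bars are mean and SD (n = 3). The groups overlap at all probes but A_55_P2741794, where NEXN-S437E reads -1.52 to -1.44 and NEXN-WT -1.96 to -1.75.

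None of the 3 VEGF receptors was called. *Kdr* (VEGFR2), which carries most VEGF-A signalling, read 4.17, 4.89 and 4.98 in NEXN-WT and 5.03, 4.72 and 4.92 in NEXN-S437E. NEXN-WT replicate 1 was low and the other 5 arrays lay together, and the difference was 0.21 (95% interval -0.32 to 0.75). *Flt1* (VEGFR1), which also yields a soluble form that traps ligand, differed by 0.11 at its leading probe (95% interval -0.33 to 0.55), by 0.14 at a second probe and by -0.10 at the last. *Flt4* (VEGFR3), the receptor of lymphatic endothelium, passed the background test in 3 NEXN-WT and 2 NEXN-S437E hearts and differed by -0.09 (SE 0.27).

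In the angiopoietin and Tie group, *Angpt2* had the largest log2 fold change of the 40 genes. It read -0.14, 0.48 and -0.28 with NEXN-WT and 0.74, 0.61 and 0.79 with NEXN-S437E. All 3 NEXN-S437E arrays lay above the NEXN-WT arrays, of which replicate 2 came near them. The difference was 0.69, or 1.62-fold (SE 0.21, unadjusted p = 0.011, limma adjusted p = 0.194), and it lay between 0.37 and 0.92 over the alternatives, at 0.61 without NEXN-WT replicate 1. The gene was past the unadjusted p in 18 of the 20 settings run and past the adjusted p in none of them. The same count was 14 of 20 for *Pgf*, 13 for *Gpihbp1* and 12 for *Cldn5*, so these 3 calls were lost in 6 to 8 of the settings.

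*Angpt1* read 1.02, 0.43 and 0.49 against 0.92, 0.97 and 1.00. Here it was NEXN-WT replicate 1 that lay with the NEXN-S437E arrays, and the difference was 0.31 (SE 0.19, limma adjusted p = 0.399), or 0.50 without it (limma adjusted p = 0.168). Without NEXN-WT replicate 2 the difference was 0.21, and without NEXN-WT replicate 3 it was 0.24. The receptors *Tek* (Tie2), bound by both ligands, and *Tie1*, its partner, differed by -0.16 (95% interval -0.51 to 0.18) and -0.02 (95% interval -0.37 to 0.33).

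**Figure D4:**
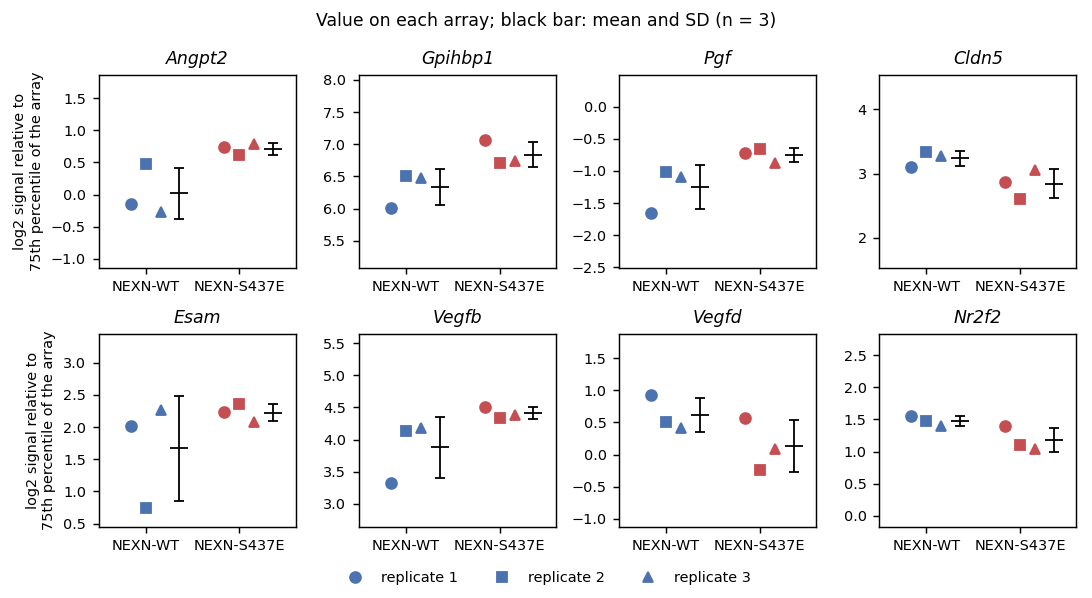
Log2 signal relative to the array's 75th percentile (vertical axes, each 3 units high) of 8 genes on each array. Points are arrays (circle, square and triangle for replicates 1, 2 and 3) and black bars are mean and SD (n = 3). *Angpt2*, *Gpihbp1*, *Pgf*, *Vegfb*, *Cldn5* and *Nr2f2* do not overlap between groups, and the low mean of *Esam* in NEXN-WT comes from replicate 2 at 0.74.

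Of the 14 identity and barrier genes, 11 had a difference above 0 and 3 below it, where 59.2% of all genes were above 0, and 1 was called each way at the unadjusted p, where 10.1% of all genes were higher and 7.91% lower. That split changed with the scaling and with the arrays used, with 6 above and 8 below under the percentile over detected probes, 7 and 7 after quantile normalization, and 6 and 8 without NEXN-WT replicate 1, since *Pecam1*, *Eng*, *Egfl7*, *Cdh5* and *Robo4* lay between 0.01 and 0.05. *Gpihbp1*, which holds lipoprotein lipase on the capillary wall, read 6.01, 6.51 and 6.47 against 7.07, 6.71 and 6.74. The groups did not overlap, with NEXN-WT replicate 1 lowest and NEXN-S437E replicate 1 highest. The log2 fold change was 0.51 (SE 0.19, limma adjusted p = 0.246), 0.35 without NEXN-WT replicate 1 and 0.28 after quantile normalization.

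*Cldn5*, the claudin of endothelial tight junctions, read 3.10, 3.34 and 3.27 in NEXN-WT and 2.87, 2.61 and 3.05 in NEXN-S437E. Every NEXN-S437E array was lower, the nearest values being 3.05 and 3.10. The log2 fold change was -0.39 (SE 0.17, unadjusted p = 0.045, limma adjusted p = 0.278) and ran from -0.50 to -0.28 over the alternatives, at -0.46 without NEXN-WT replicate 1.

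*Esam*, an adhesion molecule of endothelial junctions, had the second largest log2 fold change, 0.55, and the widest interval (-0.28 to 1.39). It read 2.01, 0.74 and 2.27 against 2.24, 2.35 and 2.09, and 1 array, NEXN-WT replicate 2, stood far below the other 5. Without it the difference was 0.09. *Icam2*, another constitutive endothelial adhesion molecule, was also lowest on that array, at 5.39, 4.98 and 6.01 against 6.11, 5.79 and 5.76, a difference of 0.43 (SE 0.26, limma adjusted p = 0.408) that was 0.19 without NEXN-WT replicate 2 and 0.71 without replicate 3.

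The defining endothelial genes were close to level. *Pecam1* read 0.31, 0.82 and 1.05 against 0.86, 0.73 and 0.75, a difference of 0.05 (95% interval -0.42 to 0.52). *Cdh5*, the cadherin of adherens junctions, read 4.24, 4.59 and 4.61 against 4.56, 4.46 and 4.46, a difference of 0.02 (95% interval -0.35 to 0.38). In both genes NEXN-WT replicate 1 was the lowest array. *Egfl7*, a matrix factor of vessels, *Robo4*, a receptor that stabilises vessels, *Eng*, a TGF-β coreceptor, and *Nos3*, the endothelial nitric oxide synthase, lay between -0.05 and 0.04. *Emcn* (endomucin) differed by 0.22 and *Vwf* (von Willebrand factor) by 0.21, *Aqp1*, a water channel of capillaries, by 0.32, and *Plvap*, the diaphragm protein of fenestrae and caveolae, by -0.18, all with intervals that included 0. *Emcn* and *Vwf* differed by 0.08 and 0.03 without NEXN-S437E replicate 1, and by 0.31 and 0.41 without NEXN-S437E replicate 2. Without NEXN-S437E replicate 1, *Aqp1* differed by 0.48 and *Plvap* by -0.42, both past the unadjusted p (limma, 0.036 and 0.029) and neither past the adjusted p (limma adjusted p = 0.314 and 0.300). Without NEXN-S437E replicate 2, *Aqp1* differed by 0.22 and *Plvap* by -0.04.

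The 5 endothelial transcription factors lay between -0.12 and 0.18. *Klf2*, induced by laminar flow, differed by 0.15 (95% interval -0.22 to 0.52) and *Klf4* by -0.08. *Erg*, which maintains endothelial identity, differed by -0.06 and the SOX factors *Sox17* and *Sox18* by 0.18 and -0.12. The groups overlapped in all 5.

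Of the 9 genes of Notch and vessel fate, 7 were tested and none was called at its leading probe. *Nr2f2* (COUP-TFII), which sets venous identity, read 1.55, 1.48 and 1.40 in NEXN-WT and 1.39, 1.10 and 1.05 in NEXN-S437E. The groups were apart only by the gap from 1.39 to 1.40, and the difference was -0.30 (SE 0.15, limma adjusted p = 0.345), or -0.09 with slide row as a block. The venous receptor *Ephb4* differed by -0.03 and its arterial ligand *Efnb2* by 0.31 (SE 0.25), which was 0.10 without NEXN-WT replicate 2 and 0.56 without replicate 3. *Notch4*, an endothelial Notch receptor, differed by -0.17, the tip cell ligand *Dll4* by -0.10 and the Notch target *Hey1* by 0.10.

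*Prox1*, which sets lymphatic identity and is also made in cardiomyocytes, read 1.58, 2.26 and 2.55 against 2.74, 2.47 and 2.51 at its leading probe. The groups overlapped and the difference was 0.44 (SE 0.25, limma adjusted p = 0.380), but 0.17 without NEXN-WT replicate 1 and 0.65 without replicate 3. At its other probe, A_55_P2733097, the values were 0.79, 1.54 and 1.43 against 1.84, 1.65 and 1.74, which did not overlap, with a difference of 0.49 (SE 0.21, unadjusted p = 0.050, limma adjusted p = 0.289). Both probes were lowest on NEXN-WT replicate 1.

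Of the inducible adhesion molecules, 2 could be tested. *Icam1* read 1.04, 0.91 and 0.93 against 1.01, 0.92 and 0.86, a difference of -0.03 with a 95% interval of -0.34 to 0.28. *Vcam1* differed by -0.24 at its leading probe (SE 0.23), which was highest on NEXN-WT replicate 1 at 3.52, and by 0.02 at its other probe. The leading probe differed by -0.04 without NEXN-WT replicate 1 and by -0.41 without NEXN-S437E replicate 1. The selectins *Sele* and *Selp*, which capture leukocytes on inflamed endothelium, had only the bound that none of their 4 probes stood well above background in either group.

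NEXN-WT replicate 1 gave the lowest value of the 6 arrays for 18 of the 40 genes, and the highest for 6, whereas NEXN-S437E replicate 1 gave the highest for 12. NEXN-WT replicate 1 was the lowest array for 42.1% of all genes. The median deviation of the 40 genes from their own means was -0.23 on that array, against -0.11 for all genes, and between -0.05 and 0.11 on the other 5. The SD within the group was larger in NEXN-WT for 30 of the 40 genes, with a median of 0.27 against 0.15 in NEXN-S437E. For the SDs and the arrays of highest value no share of all genes is given, so neither is read as particular to these genes. Over the 6 fits that each left out 1 array, the sign of the difference turned in at least 1 fit for 17 of the 40 genes, none of which differed by more than 0.21 with all arrays. In those fits 10 genes not called with all arrays passed the unadjusted p at least once, and none passed the adjusted p. No share of all genes is given for the 17 or the 10, so neither count is read as particular to these genes.

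**Figure D5:**
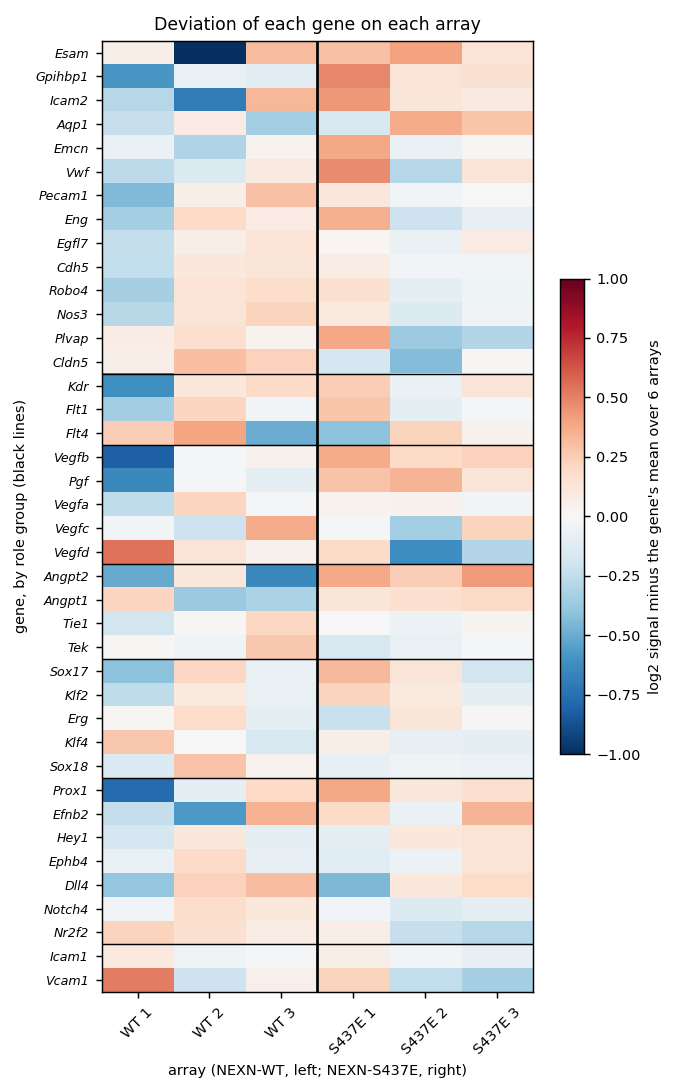
Deviation of the 40 genes (rows, by role group) from their own mean over the 6 arrays (columns), in log2 units from -1 (blue) to 1 (red). NEXN-WT replicate 1 is mostly blue, with a median deviation of -0.23, whereas *Vegfd* and *Vcam1* are high on it.

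Lists of related genes were read against the same shares of all genes. Of 40 other angiogenic genes, which include neuropilins, Notch ligands, BMP receptors and FGF and PDGF signals, 39 were tested. At the unadjusted p, 2 were higher and 3 lower, and the median was 0.01. *Thbs1*, thrombospondin 1, an inhibitor of angiogenesis, was the 1 gene also past 2-fold. It read 3.43, 1.20 and 1.30 against 0.86, 0.02 and 0.65, and the high value of NEXN-WT replicate 1 accounted for much of the difference of -1.47 (SE 0.56, limma adjusted p = 0.252), which was -0.74 without it. The others called, named after their values were seen, were *Vash1* (0.49), an angiogenesis inhibitor, and *Id1* (0.45), a target of BMP signalling, higher, and *Esm1* (-0.55), a tip cell product, and the pericyte receptor *Pdgfrb* (-0.35), lower. The leading *Vash1* probe and the second (0.42) are placed on chromosomes 19 and 2 by the array's annotation, whereas RefSeq puts the gene on chromosome 12, where its remaining probe differed by 0.02, so the *Vash1* call is uncertain. All 54 tested probes of the 44 genes lay on the chromosome RefSeq gives for the gene.

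Of 10 genes enriched in cardiac capillaries, among them fatty acid carriers, channels, transcription factors and cell cycle regulators, 9 had a difference above 0 and the median was 0.27, where 59.2% of all genes were above 0 and their median was 0.07. Without NEXN-WT replicate 1 the split was 6 above and 4 below and the median 0.14. *Fabp4*, a fatty acid binding protein, and *Cd36*, a fatty acid transporter, were called at the unadjusted p, with differences of 0.49 and 0.50 (limma adjusted p = 0.192 and 0.223). *Cd36* is made by cardiomyocytes too and *Fabp4* by adipocytes and macrophages. After quantile normalization *Fabp4* differed by 0.19 and *Cd36* by 0.32.

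Of 7 endocardial and lymphatic genes, 1 was higher and 2 lower at the unadjusted p, where 10.1% and 7.91% of all genes were, and 6 had a difference below 0, or 4 of the 7 without NEXN-WT replicate 1. *Lyve1*, a hyaluronan receptor of lymphatic endothelium and resident macrophages, read 1.00, 1.39 and 1.53 against 2.12, 2.14 and 2.17. The groups were well apart, and the difference of 0.83 (SE 0.17, limma adjusted p = 0.111) was 0.68 without NEXN-WT replicate 1. *Ccl21a*, a chemokine of lymphatic vessels whose near-identical copies a probe may not separate, read 4.11, 3.21 and 2.97 against 2.57, 1.87 and 2.34. It was lower by 1.17 on the log2 scale (SE 0.31, limma adjusted p = 0.159), the 1 gene of this list past 2-fold, and differed by -0.83 without NEXN-WT replicate 1. *Pdpn*, podoplanin, which fibroblasts make as well, differed by -0.56, or by -0.34 without that replicate. *Mmrn1*, a product of lymphatic endothelium and platelets, differed by -0.92 (limma adjusted p = 0.38), or by -0.30 without NEXN-WT replicate 1. No gene of the list passed the adjusted p, and these genes were named after their values were seen, apart from *Ccl21a*. With array weights, under which 17.1% of all genes passed the adjusted p, *Lyve1*, *Ccl21a*, *Cd36*, *Fabp4* and *Vash1* passed it as well.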

How the data were processed

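RNA from 6 hearts, 3 per group, was measured with 1 Agilent mouse gene expression array per mouse. Groups and replicate numbers were taken from the sample labels, and the study states that each array is a separate animal. The authors extracted the arrays with Feature Extraction 10.7.1.1 (per the labels), and the deposited values are background-subtracted intensities that were not normalized between arrays. The deposited series table holds log2 values, which the authors appear to have quantile normalized, and the gene symbols, mm9 coordinates and probe sequences used here. No genome of that build was used, so probes were not placed in exons or UTRs.

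The processed signals were log2 transformed, the 75th percentile of each array (110 to 273 in intensity) was subtracted, control and outlier spots were left out and spots of a probe were averaged. Between 41.9% and 47.8% of spots were well above background, none was saturated, and 22998 probes were tested. All 6 arrays lay on 1 slide and in 1 scan, with NEXN-S437E replicate 1 and the NEXN-WT group in slide row 1 and the other 2 in row 2. Differences were fitted over all tested probes in R 4.3.3 with the lmFit and eBayes functions of limma 3.58.1, with Benjamini-Hochberg adjustment. Counts over genes take the tested probe of highest mean. Plots were made with matplotlib 3.10.9.

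Values on every array were given for members past a threshold, for the 3 largest log2 fold changes each way and for at least 1 member of each role. From the other lists, genes past the adjusted p or 2-fold were named, at most 5 a list, and the others named there were chosen after their values were seen. The members and lists were chosen with earlier results of these data known. The alternatives covered normalization, background correction, filters, the deposited values, the methods' t-test, blocks, weights, arrays left out and the mean over probes.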

Additional observations from a re-analysis of the deposited data

How the results depend on the processing

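The count of members past the adjusted p was 0, and past 2-fold with the unadjusted p 0, in all alternatives but array weights, which gave 4 (*Esam*, *Icam2* and *Angpt1* higher, *Nr2f2* lower) and 1 (*Esam*), where 17.1% of all genes passed the adjusted p. The count past the unadjusted p, 4 (18.0% of all genes), was 7 with normexp (19.1%), 1 without the filter on dim probes (11.6%), 1 with the methods' t-test (14.7%), 1 with slide row as a block (9.54%) and 14 with array weights (35.8%). With each array left out it ran from 2 (without NEXN-S437E replicate 2; 10.97%) to 8 (without NEXN-WT replicate 3; 23.0%), with 0 past the adjusted p or 2-fold each time. The median ran from -0.08 to 0.09 over the 19 alternatives and from -0.04 to 0.09 with arrays left out, and was below the median of all genes in all 19. The percentile over detected probes moved the median of all genes from 0.07 to -0.04. The causes were not tested. The correlations of same-numbered deviations were -0.15, -0.03 and -0.18. With 3 arrays per group such values cannot settle whether the replicate numbers pair the samples. With the replicate numbers as a block 3 members passed the unadjusted p and 0 the adjusted p. The share of all genes under that block is not given here, so these counts are not read against it. With slide row as a block *Plvap* differed by 0.30 and *Aqp1* by -0.00036, each with its sign turned. No direction of *Angpt2*, *Gpihbp1*, *Pgf*, *Cldn5*, *Esam*, *Vegfb*, *Vegfd* or *Nr2f2* turned in any alternative. The number of arrays limits the precision, and the dim probes, with little signal over background, limit *Flt4*, *Notch1*, *Hey2* and the selectins.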
